A study of Sus scrofa with 21 samples.

Results

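Complement components were followed in the hearts of pigs with a myocardial infarction (MI). The 9 genes were the C1q chains C1QA, C1QB and C1QC, the C1 proteases C1R and C1S, the central and terminal components C3 and C5, and the alternative pathway proteases CFB and CFD. All their probe sets on the porcine array were taken, by the gene symbol of the platform's annotation, or for C1QB by the study's own match to a human gene, since the platform names no gene there. This gave 10 probe sets out of 24123 on the array, for 9 of 7516 genes with a symbol. Of these, 7 probe sets for 7 genes were above a log2 value of 3 in all 21 arrays and were tested among 12180. The C5 probe set and both CFB probe sets were not tested.

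The 9 infarcted pigs were female Landrace x Large White crossbreeds, and no age was given. Their infarcts were surgical, from ligatures left in place on a circumflex branch (the first marginal). Each gave 1 infarct core (IC) sample from the middle of the left ventricular scar and 1 remote myocardium (RM) sample from the non-infarcted septum. The stages were 1 week (pigs 7, 8 and 9), 4 weeks (pigs 18, 20, 22) and 6 weeks (pigs 2, 3, 5), which the labels also give as days 6, 30 and 45. Control myocardium (CM) came from pigs 30, 31 and 33. The labels describe these pigs as sham-operated, at day 0, and the methods of the study call them healthy. Surgery is therefore either shared by all groups or absent from CM. If it is shared, time since surgery still differs, with CM at day 0, which cannot be told apart from infarction in comparisons with CM. IC and RM differ in their place in the heart as well as in infarction, which cannot be told apart, and where in the heart CM was taken was not given.

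Complement is a cascade of plasma proteins that tags damaged cells and microbes, attracts leukocytes and forms pores in membranes. In the classical pathway, C1q binds antibody, C-reactive protein or dying cells and activates the proteases C1r and C1s. These cut C4 and C2, and the resulting enzyme cuts C3. In the alternative pathway, factor D cuts factor B bound to C3b, which amplifies C3 cleavage, and both pathways lead to C5. The liver makes most of the circulating components, while tissue macrophages are the main source of C1q, and fibroblasts and other stromal cells can make C1r, C1s and C3.

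Expression values are log2 values from robust multi-chip averaging (RMA), so a log2 fold change (FC) of 1 is a doubling of signal. A difference was called at a Benjamini-Hochberg adjusted p under 0.05 in limma, a linear model fitted over all tested probe sets. Standard errors (SE) are limma's, SD is the spread over 3 arrays, and n was 3 pigs in each group. With 3 arrays in each group, the smallest p of an exact permutation test is 0.1, and no such test was run. The 3 CM arrays serve in every comparison with CM. Fewer cells of a type and less RNA per cell cannot be told apart in these tissue pieces. As for the tissue, 10 of 12 cardiomyocyte markers were tested, and their mean log2 value was 11.81 to 11.96 in CM and RM and 10.56 to 11.61 in IC. The IC array of pig 22 at 4 weeks had the lowest mean correlation with its own group (r = 0.95). It was the highest IC array of 4 weeks for all 7 tested members, so their 4-week values against CM are also given without it. Of 22 labelling control probe sets tested, 16 were higher in IC than in CM at 4 weeks and 12 at 6 weeks. The largest differences were 1.50 and 1.66 on the log2 scale. In the same comparison 2 were lower at 1 week and 1 at 6 weeks, where the lowest log2 FC was -1.34. Against RM, 4 were higher in IC at 4 weeks and 4 at 6 weeks. Their part in the results below was not tested.

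**Figure D1:**
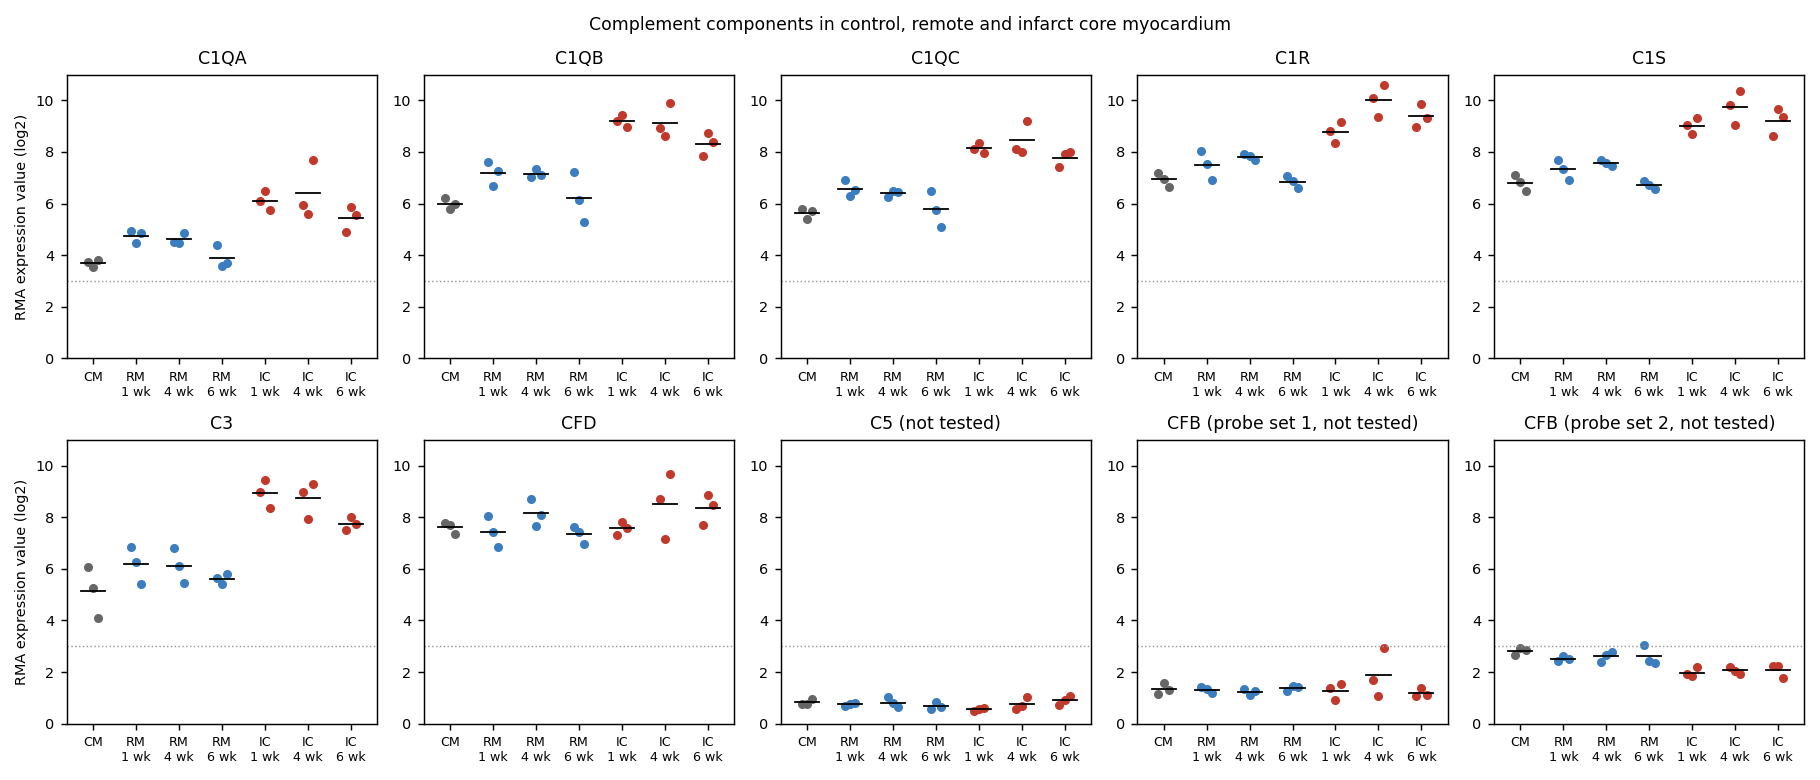
Log2 RMA expression value (y axis) of each complement probe set in the 21 arrays, by group (x axis). Points are arrays, black lines are group means over 3 arrays, and the dotted line is the value of 3 used as the filter. The 9 IC arrays lie above all 12 other arrays for C1QB, C1QC, C1R, C1S and C3, while C5 and the first CFB probe set stay below 3 in every array.

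Transcripts of all 3 C1q chains, the classical pathway's recognition molecule, were higher in IC than in CM at every stage. For C1QB, the CM arrays read 6.20, 5.79 and 5.99 in pigs 30, 31 and 33. The IC arrays read 9.18, 9.45 and 8.96 in pigs 7, 8 and 9 at 1 week, 8.92, 8.62 and 9.88 in pigs 18, 20 and 22 at 4 weeks, and 7.85, 8.75 and 8.38 in pigs 2, 3 and 5 at 6 weeks. The RM arrays read 7.62, 6.69 and 7.26 at 1 week, 7.04, 7.35 and 7.10 at 4 weeks, and 7.23, 6.14 and 5.30 at 6 weeks, in the same order of pigs. Every IC array was thus above every RM and CM array, and the RM arrays of 1 and 4 weeks were above the controls. The log2 FC of C1QB in IC was 3.20 at 1 week, 3.14 at 4 weeks and 2.33 at 6 weeks (SE 0.39), with limma adjusted p of 2.31e-06, 2.62e-06 and 0.000119.

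C1QC, the third chain, ran from 5.39 to 5.78 in CM, from 5.11 to 6.93 in RM with a median of 6.43, and from 7.42 to 9.21 in IC with a median of 8.00. The IC arrays did not overlap the others. Its log2 FC against CM was 2.51, 2.82 and 2.15 at 1, 4 and 6 weeks (SE 0.31). C1QA, the first chain, ran from 3.56 to 3.80 in CM, from 3.58 to 4.94 in RM (median 4.47) and from 4.90 to 7.69 in IC (median 5.85). One IC array, pig 2 at 6 weeks at 4.90, lay just below the highest RM array, pig 7 at 1 week at 4.94. Its log2 FC against CM was 2.41, 2.72 and 1.74 (SE 0.39). The IC array of pig 22 was the highest for all 3 chains, and without it the 4-week log2 FC was 2.08 for C1QA, 2.77 for C1QB and 2.44 for C1QC, all still called.

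C1R and C1S, the proteases that C1q activates, were also higher in IC at every stage. C1R read 7.20, 6.95 and 6.65 in CM (pigs 30, 31 and 33). In IC it read 8.81, 8.33 and 9.17 at 1 week (pigs 7, 8 and 9), 10.08, 9.34 and 10.61 at 4 weeks (pigs 18, 20 and 22) and 8.98, 9.86 and 9.31 at 6 weeks (pigs 2, 3 and 5). In RM, in the same order, it read 8.02, 7.53 and 6.91, then 7.93, 7.84 and 7.70, then 7.05, 6.88 and 6.61. The 9 IC arrays did not overlap the rest. The log2 FC of C1R against CM was 1.84 at 1 week, 3.07 at 4 weeks and 2.45 at 6 weeks (SE 0.31), with limma adjusted p of 8.96e-05, 3.34e-07 and 9.60e-06. C1S, which cuts C4 and C2, ran from 6.50 to 7.09 in CM, 6.56 to 7.70 in RM (median 7.35) and 8.62 to 10.35 in IC (median 9.31), with no overlap between IC and the rest. Its log2 FC against CM was 2.20, 2.93 and 2.41 (SE 0.30). Without the IC array of pig 22, the 4-week log2 FC was 2.77 for C1R and 2.62 for C1S, both called.

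C3, the component on which the pathways converge, was higher in IC than in CM at every stage. It read 6.07, 5.24 and 4.09 in CM (pigs 30, 31 and 33), the widest spread of any tested member in the controls (SD 1.00). In IC it read 8.97, 9.44 and 8.36 at 1 week (pigs 7, 8 and 9), 8.99, 7.95 and 9.29 at 4 weeks (pigs 18, 20 and 22) and 7.49, 8.01 and 7.74 at 6 weeks (pigs 2, 3 and 5). In RM, in the same order, it read 6.85, 6.26 and 5.41, then 6.82, 6.11 and 5.45, then 5.65, 5.41 and 5.80. All 9 IC arrays lay above the others, whereas the RM arrays overlapped CM at every stage. The log2 FC in IC was 3.79 at 1 week, 3.61 at 4 weeks and 2.61 at 6 weeks (SE 0.47), with limma adjusted p of 3.12e-06, 5.00e-06 and 0.00025. As a fold this was 13.8 at 1 week (95% interval 6.97 to 27.5) and 6.13 at 6 weeks (3.08 to 12.2). Without the IC array of pig 22 the 4-week log2 FC was 3.34. Without the low CM array of pig 33 the log2 FC was 3.27, 3.09 and 2.09 at 1, 4 and 6 weeks, and all these values were called.

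CFD, the serine protease that cuts factor B and is best known from fat cells, was not called in any comparison as fitted here. Some other fits did call it. It read 7.78, 7.69 and 7.36 in CM (pigs 30, 31 and 33). In IC it read 7.32, 7.80 and 7.59 at 1 week (pigs 7, 8 and 9), 8.72, 7.16 and 9.68 at 4 weeks (pigs 18, 20 and 22) and 7.69, 8.86 and 8.49 at 6 weeks (pigs 2, 3 and 5). In RM, in the same order, it read 8.03, 7.41 and 6.85, then 8.72, 7.66 and 8.07, then 7.64, 7.43 and 6.98. The groups overlapped, and at 4 weeks the IC arrays ran from the third lowest to the highest of all 21. The log2 FC in IC against CM was -0.04 at 1 week (95% interval -1.02 to 0.94), 0.91 at 4 weeks (-0.06 to 1.89) and 0.74 at 6 weeks (-0.24 to 1.72), SE 0.47, with limma adjusted p of 0.948, 0.105 and 0.202. The 4-week value rested on single arrays. Without the IC array of pig 20 it was 1.60 (adjusted p = 0.00245), and without that of pig 22 it was 0.33 (adjusted p = 0.55). With all arrays kept and array weights in limma, it was 0.87 (adjusted p = 0.0494).

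CFB and C5 were near the floor of the array. C5, the source of the anaphylatoxin C5a and of the membrane attack complex, read 0.51 to 1.09 in the 21 arrays. The first CFB probe set read 0.90 to 1.70 in all arrays but the IC array of pig 22, at 2.93. The second read 2.66 to 2.93 in CM, 2.37 to 3.06 in RM and 1.78 to 2.24 in IC, so that all 9 IC arrays were below the other 12 and IC was below RM in 9 of 9 pigs. With no filter on low values this second probe set passed the test, with a log2 FC against CM of -0.83, -0.76 and -0.74 at 1, 4 and 6 weeks (SE 0.17, limma adjusted p of 0.000918, 0.0021 and 0.00344). Such low values carry little about the transcript. Among the 3051 untested probe sets with a mean of 2 to 3, 18.4% were lower in IC in all 9 pigs.

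Counted together, 6 of the 7 tested members were higher in IC than in CM at 1, 4 and 6 weeks, all but CFD each time. Among all tested probe sets, 26% were called higher at 1 week, 25.3% at 4 weeks and 21% at 6 weeks. The median log2 FC of the 7 members was 2.41, 2.93 and 2.33, while that of all tested probe sets was -0.06, -0.06 and -0.08. The 9 IC arrays lay above all 12 others for 5 members (C1QB, C1QC, C1R, C1S and C3), a separation that 10.4% of all tested probe sets showed.

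**Figure D2:**
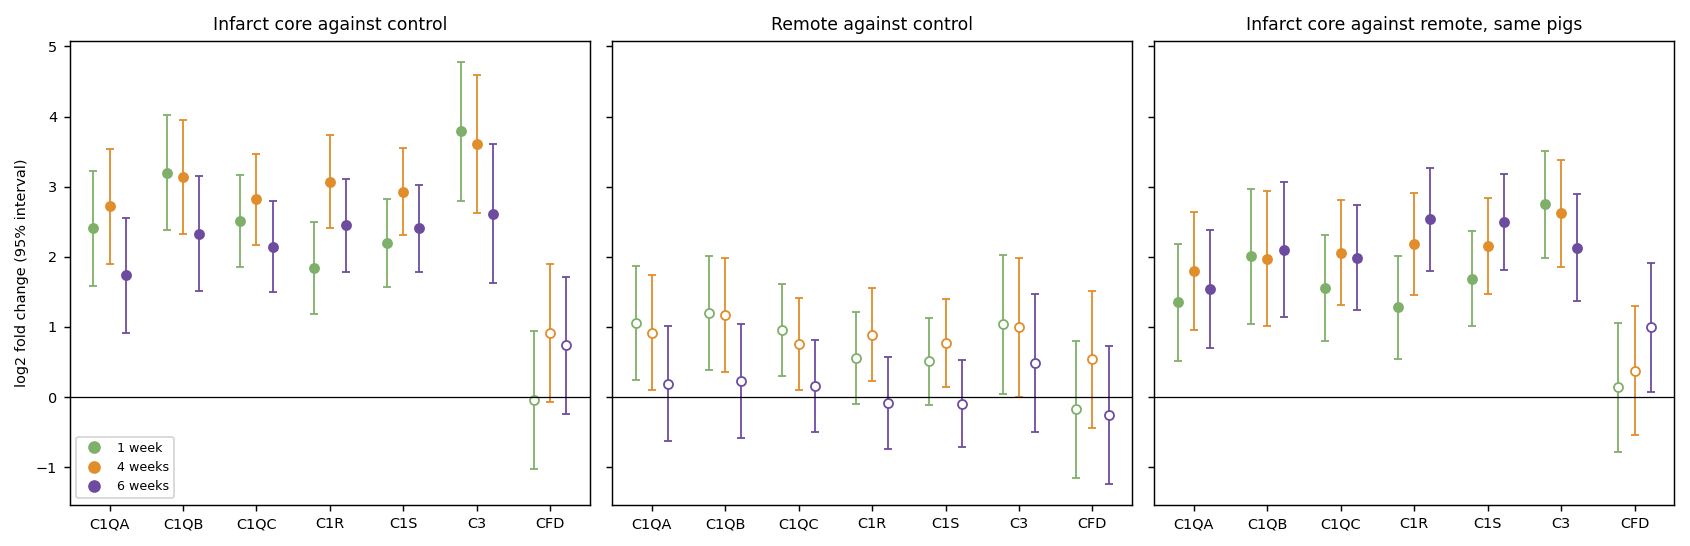
Log2 fold change (y axis) of the 7 tested members (x axis) at 1, 4 and 6 weeks in IC against CM, RM against CM, and IC against RM of the same pigs. Points are limma estimates with their 95% intervals, filled where the adjusted p was under 0.05. C1QA, C1QB, C1QC, C1R, C1S and C3 are filled at every stage in both comparisons of IC, and no point is filled for RM against CM.

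In the remote septum, none of the 7 members was called against CM at any stage with limma, where 1.13%, 1.08% and 0.197% of all tested probe sets were called at 1, 4 and 6 weeks. At an unadjusted p under 0.05, 4 members passed at 1 week (the C1q chains and C3), 6 at 4 weeks (all but CFD) and 0 at 6 weeks. The share of all tested probe sets at this unadjusted threshold was not counted, so these counts cannot show an excess. The C1q chains were 0.95 to 1.19 above CM at 1 week and 0.76 to 1.17 at 4 weeks on the log2 scale, with adjusted p from 0.14 to 0.247. For C1QB the log2 FC was 1.19 at 1 week (95% interval 0.38 to 2.01), 1.17 at 4 weeks (0.35 to 1.98) and 0.23 at 6 weeks (-0.58 to 1.04). C1R and C1S were at 0.56 and 0.51 at 1 week, 0.89 and 0.77 at 4 weeks, and -0.09 for both at 6 weeks, and C3 was at 1.04, 0.99 and 0.49. All 3 RM arrays were above all 3 CM arrays for the C1q chains at 1 week, that is 3 of 7 members where 12% of all tested probe sets did so. At 4 weeks this held for 5 of 7 (the C1q chains, C1R and C1S) where 14.9% did so, and at 6 weeks for 0 of 7 where 9.1% did so. The median log2 FC of the members was 0.95, 0.89 and 0.16, and that of all tested probe sets 0.02, 0.01 and -0.03.

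Whether the remote values pass the threshold depended on the fit at 4 weeks. With array weights, 5 of 7 members were called higher in RM at 4 weeks, where that fit called 13.4% of all tested probe sets, and 1 of 7 (C1QC) at 1 week, where it called 4.57%. A separate fit of the 6 arrays of RM at 4 weeks and CM called C1QA (adjusted p = 0.0496) and C1QB (adjusted p = 0.0335). The share of all tested probe sets called in that separate fit is not given here, so these calls cannot show an excess.

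IC and RM of the same pig were compared with the pig as a block, and 6 of 7 members were higher in IC at each stage, again all but CFD. Among all tested probe sets, 24.7% were called higher at 1 week, 25.5% at 4 weeks and 22.6% at 6 weeks. C3 differed by 2.75, 2.62 and 2.13 on the log2 scale at 1, 4 and 6 weeks (SE 0.34, limma adjusted p of 0.00011, 0.000137 and 0.000806), and without pig 22 by 2.01 at 4 weeks (adjusted p = 0.000356). At 6 weeks C1R and C1S differed by 2.53 (SE 0.33, adjusted p = 0.000251) and 2.50 (SE 0.31, adjusted p = 0.000172). The C1q chains differed by 1.35 to 2.01 at 1 week, 1.80 to 2.06 at 4 weeks and 1.54 to 2.10 at 6 weeks.

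In single pigs, IC exceeded RM in 9 of 9 for each of these 6 genes, which 22.7% of all tested probe sets did. The difference ran from 1.83 to 3.84 for C3, from 1.33 to 2.92 for C1S, from 0.78 to 2.97 for C1R and from 0.50 to 2.83 for C1QA. Pig 2 at 6 weeks had the smallest difference for C1QA, C1QB and C1QC (0.50, 0.62 and 0.92), and its RM array was the highest of the 3 at that stage for each chain. Without pig 2, C1QB differed by 2.84 at 6 weeks (adjusted p = 0.000468). For CFD, IC exceeded RM in 7 of 9 pigs, and the difference ran from -0.71 in pig 7 to 1.62 in pig 22. At 6 weeks CFD was higher in IC in 3 of 3 pigs, by 1.00 (SE 0.41, adjusted p = 0.0693), and without pig 2 it passed the test (1.47, adjusted p = 0.0293). With all pigs kept, limma called CFD at 6 weeks with array weights (1.23, adjusted p = 0.00408) and in a separate fit (adjusted p = 0.0350). Some calls rested on single pigs. C1QA lost its call at 1 week without pig 8 (1.01, adjusted p = 0.103) and at 6 weeks without pig 3 (1.18, adjusted p = 0.0645) or pig 5 (1.38, adjusted p = 0.0561), and C1R at 1 week without pig 9 (0.79, adjusted p = 0.0808).

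**Figure D3:**
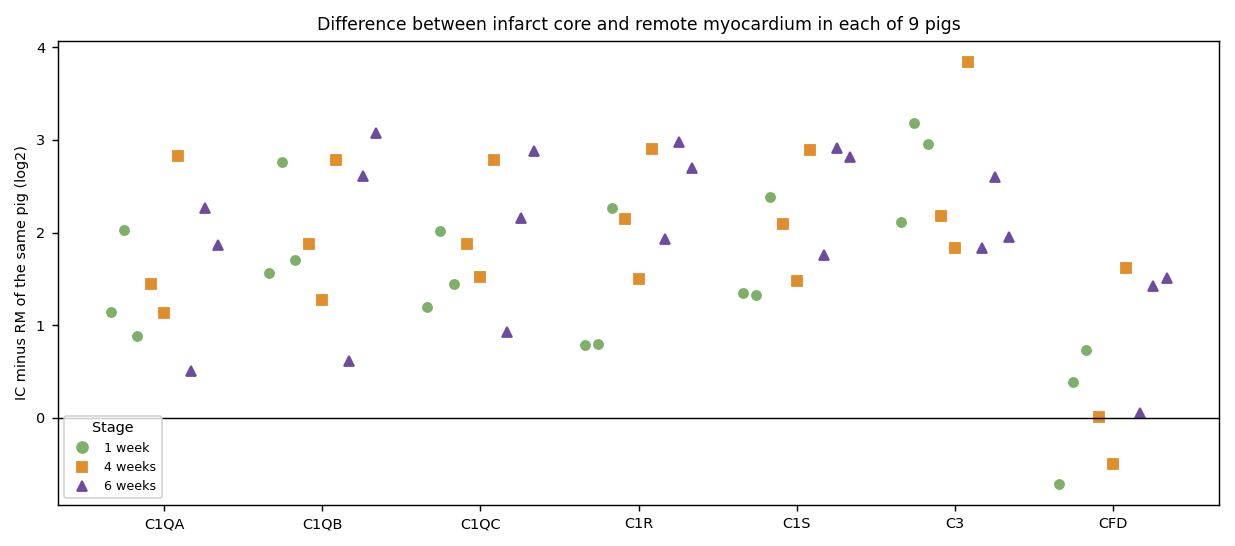
IC minus RM of the same pig in log2 RMA value (y axis) for the 7 tested members (x axis), 1 point per pig, marked by stage. All 9 points lie above 0 for C1QA, C1QB, C1QC, C1R, C1S and C3, and 7 of 9 do for CFD.

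Between 1 and 4 weeks within IC, 1 of 7 members was called, where 11.9% of all tested probe sets were, so the share is near the background. This was C1R, higher at 4 weeks by 1.23 (SE 0.31, limma adjusted p = 0.0175). The call was lost without the IC array of pig 18 (1.20, adjusted p = 0.0594), pig 22 (0.94, adjusted p = 0.0791) or pig 8 (1.01, adjusted p = 0.0694), and in a separate fit of those 6 arrays (adjusted p = 0.0808). C1S, its partner protease, differed by 0.73 (adjusted p = 0.113), and without the IC array of pig 20 by 1.07 (adjusted p = 0.0229). The C1q chains differed by -0.06 to 0.31 and C3 by -0.18 over that interval.

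From 1 to 6 weeks no member was called, where 15.7% of all tested probe sets were. C3 was lower by 1.18 at 6 weeks (95% interval of the log2 FC -2.17 to -0.19, adjusted p = 0.0983). A separate fit of these 6 arrays called C3 (adjusted p = 0.0428). C1QB was lower by 0.87 (adjusted p = 0.135). From 4 to 6 weeks all 7 members had a negative log2 FC, from -0.996 for C3 to -0.17 for CFD, none called, where 3.88% of all tested probe sets were.

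In RM, no member was called between stages, where 1.59%, 0.181% and 0.632% of all tested probe sets were called at 4 against 1 week, 6 against 1 week and 6 against 4 weeks. From 4 to 6 weeks all 7 had a negative log2 FC, from -0.98 (C1R, adjusted p = 0.205) to -0.51 (C3, adjusted p = 0.738), with a median of -0.80 beside -0.04 for all tested probe sets. The change of the IC to RM difference between stages was called for 0 of 7 members in each of the 3 contrasts of stages, where 0.0657%, 0.32% and 0% of all tested probe sets were called. At an unadjusted p under 0.05 only C1R passed, at 6 against 1 week, where its difference was wider by 1.25 (SE 0.47, adjusted p = 0.257). Here too the share of all tested probe sets at the unadjusted threshold was not counted.

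By group mean, CM was lowest and RM at 6 weeks next for the C1q chains and C3, and RM at 6 weeks was lowest for C1R, C1S and CFD. The 3 IC groups were the highest for all tested members but CFD. IC at 4 weeks was highest for C1QA, C1QC, C1R, C1S and CFD, and IC at 1 week for C1QB and C3. RM at 6 weeks and CM were not called different for any tested member. Among the IC groups, no neighbours in this order were called different, and for C1R only the lowest and the highest (1 and 4 weeks) were.

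Over the 9 IC arrays, C1R and C1S correlated at r = 0.94. The 3 C1q chains correlated with each other at r = 0.90 to 0.98, and with the proteases at r = 0.26 (C1QB with C1R) to 0.68 (C1QC with C1S). C3 correlated at r = 0.91 with C1QB and at r = 0.08 with C1R over these 9 arrays. With the mean of each group taken out, over 21 arrays, the values were 0.96 for C1R and C1S, 0.79 to 0.96 among the C1q chains, 0.47 to 0.57 between chains and proteases, 0.32 for C3 and C1QB, and 0.56 for C3 and C1R, so the order for C3 depended on whether differences between stages were kept in. CFD, though not called, correlated with C1R and C1S at r = 0.81 and 0.85 over the IC arrays, and at 0.80 and 0.85 with group means taken out. These are descriptions over arrays that share pigs, stages and 1 normalization. In RefSeq's pig annotation (Sscrofa11.1), C1QA, C1QC and C1QB are neighbours on chromosome 6, and C1R and C1S are neighbours on chromosome 5.

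Of 6236 probe sets with another gene's single symbol, those most like each member over the 21 arrays were FCER1G, FCGR3A and PRCP for C1QA (r = 0.93 to 0.94) and CYBA, FCGR3A and CTSH for C1QB (r = 0.95 to 0.97). For C1QC they were CTSH, MDK and CYBA (r = 0.96 for each). For C1R they were MAOA, MMP14 and COL5A3 (r = 0.95 to 0.97), and for C1S MMP14, RARRES2 and DAB2 (r = 0.97 for each). For C3 they were LOC100153598, INF2 and TAGLN (r = 0.95 for each), and for CFD POU2F1, ISYNA1 and ZNF395 (r = 0.84 to 0.86). All these correlations include the difference between IC and the other groups.

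Markers of several cell types also differed between IC and CM, in both directions. Of 12 macrophage markers 9 were tested, and 9, 8 and 8 were higher in IC than in CM at 1, 4 and 6 weeks. Their mean log2 value was 4.96 to 5.06 in CM, 5.03 to 5.42 in RM and 6.02 to 7.23 in IC, and among the defining markers CD163 had a mean of 5.42 in CM and 6.95 in IC. With group means taken out, this mean correlated with C1QA, C1QB and C1QC at r = 0.86, 0.74 and 0.83 over 21 arrays. Its r was 0.43 and 0.56 with C1R and C1S, 0.23 with C3 and 0.62 with CFD. All 10 fibroblast markers were tested and higher in IC at every stage, with a mean of 6.63 to 7.60 in CM and 9.71 to 10.29 in IC. With group means taken out, their mean correlated with C1R, C1S and C3 at -0.10, -0.09 and -0.51. It correlated with C1QA, C1QB, C1QC and CFD at 0.22, 0.20, 0.30 and -0.06. Of 10 tested cardiomyocyte markers, 5, 7 and 4 were lower in IC than in CM, and 1 was higher at 1 week. With group means taken out, the cardiomyocyte mean correlated with the members at r = -0.76 (C1QA) to -0.30 (C3). Of 5 smooth muscle markers 4 were higher in IC at each stage, and of 6 tested endothelial markers 1, 0 and 0 were higher and 1, 1 and 2 lower. In the same way, the smooth muscle mean correlated with C1R and C1S at 0.26 and 0.24 and with C3 at 0.60. Its r was -0.05 to 0.00 with the C1q chains and 0.20 with CFD. The endothelial mean correlated with C1R and C1S at 0.70 and 0.67 and with C3 at 0.43. Its r with C1QA, C1QB, C1QC and CFD was 0.64, 0.48, 0.61 and 0.61. At 4 weeks the IC array of pig 22 stood apart from those of pigs 18 and 20 on several of these means. It had 7.19 for macrophages (6.43 and 6.40 in the others), 6.66 for endothelium (5.62 and 5.65) and 10.56 for cardiomyocytes (11.13 and 11.04). Correlations without this array are not given here, so how far they rest on it is not known. The part of these markers in the results was not tested.

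Markers of the other candidate sources were mostly below the filter. Of 8 hepatocyte markers only APOA1 was tested, with a mean of 6.06 in CM and 7.71 in IC and higher in IC at every stage. It correlated with the members at r = 0.34 (C3) to 0.79 (CFD) with group means taken out. The IC array of pig 22 read 9.40 for APOA1, against 7.79 and 7.38 in pigs 18 and 20, and no correlation is given without it. ALB, the defining marker of hepatocytes, had a mean of 2.61 in CM and 1.34 in IC. Of 5 red cell markers 1 was tested and was lower in IC at 4 and 6 weeks, by 0.42 and 0.46 in log2 FC. None of 6 neutrophil markers was tested, and S100A8 and S100A9 had a mean in IC of 0.95 and 1.08. None of 10 lymphocyte markers was tested, the highest mean in IC being 4.29 for CD8A, against 2.28 in CM. A probe set above 3 only in the 9 IC arrays could not pass the filter of 10 arrays, so being untested does not mean absent. CD3E, CD3G, CD2 and CD3D had means of 2.40, 1.48, 2.23 and 2.45 in CM and 3.46, 2.93, 3.29 and 2.92 in IC. CD4 was at 0.99 and 1.03, and CD79B was lower in IC (2.14 in CM and 1.98 in IC). Of 6 adipocyte markers 3 were tested and 1 (LPL) was lower in IC at each stage, and ADIPOQ had a mean of 1.10 in CM and 1.38 in IC.

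**Figure D4:**
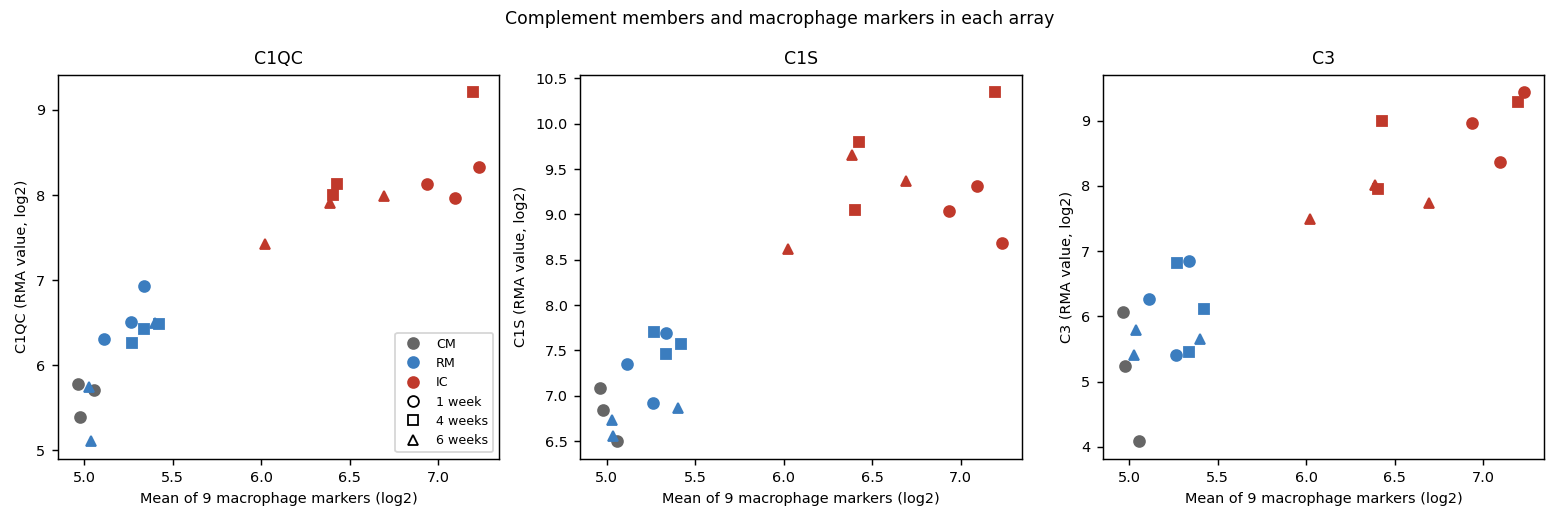
Log2 RMA value of C1QC, C1S and C3 (y axes) against the mean log2 value of 9 macrophage markers (x axis) in the 21 arrays, coloured by group and shaped by stage. The IC arrays lie apart from RM and CM on both axes in each panel, and within IC the 3 arrays of 1 week have macrophage means of 6.94 to 7.23.

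The other genes of the complement system give the setting. Of the listed genes 29 had a probe set and 15 were tested. Against CM, 9, 10 and 10 of the 15 were higher in IC at 1, 4 and 6 weeks and 3, 3 and 2 were lower, with 26%, 25.3% and 21% of all tested probe sets higher and 28.2%, 29.1% and 26% lower. In RM 0 of 15 were called at each stage with limma. Of all tested probe sets, 1.13%, 1.08% and 0.197% were called there at 1, 4 and 6 weeks, so 0 of 15 is near the background. In IC against RM, 10, 11 and 11 were higher and 3 lower at each stage, with 24.7%, 25.5% and 22.6% of all tested probe sets higher and 27.9%, 29.3% and 25% lower. These counts are descriptions, since 6 of the 15 passed the filter mainly through the arrays where they were high. Of the 9 genes above 3 in at least 20 arrays, 5, 6 and 6 were higher in IC than in CM and 1 (VTN) lower, and 6, 7 and 7 were higher in IC than in RM and 1 lower. Both counts against RM include CD46 and CD59 by 1 probe set each. The second tested probe set of each was not called against RM at any stage. C4BPA lost its call against RM at 4 weeks whichever of the 6 arrays was left out (limma adjusted p of 0.0527 to 0.0895). C7 lost its call at 1 week without pig 7 (0.90, adjusted p = 0.167) or pig 9 (0.48, adjusted p = 0.345).

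Upstream of C3, C4A, the C1s substrate, was higher in IC by 3.67, 4.10 and 3.59 on the log2 scale (SE 0.84, limma adjusted p of 0.00132, 0.000503 and 0.00213). Single arrays moved these values, to 4.31 at 1 week without pig 8, 3.18 and 5.18 at 4 weeks without pig 22 and pig 20, and 2.81 at 6 weeks without pig 3, all called. The recognition molecules PTX3, a pentraxin that binds C1q, and COLEC12, a collectin, were higher by 2.21 to 3.21 and 1.40 to 2.00. Without the CM array of pig 30 or 31, PTX3 was at 2.99 or 1.54 at 1 week, 3.37 or 1.92 at 4 weeks and 4.00 or 2.55 at 6 weeks, and at 1 week it was at 1.50 or 2.84 without the IC array of pig 7 or 8, all called. A separate fit of IC at 1 week and CM did not call PTX3 (2.21, SE 0.83, limma adjusted p = 0.0540). C7, a part of the membrane attack complex, was higher by 1.98, 3.03 and 2.77 (SE 0.43), whereas C8G, a chain of C8, was lower by 0.93 at 1 and 4 weeks. The probe sets of C4A, PTX3, CD55 and ITGB2 passed the filter mainly through the 9 IC arrays, with at most 1 CM array above 3, so that they could only be tested because they were high there. CPN1 and C8G, in turn, passed mainly through CM and RM, with 3 and 1 of 9 IC arrays above 3.

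Regulators of the cascade were among the genes higher in IC. SERPING1, the inhibitor of C1r and C1s, was higher in IC by 2.04, 2.92 and 2.16 on the log2 scale (SE 0.32) and reached a mean of 10.11 at 4 weeks. C4BPA, which inactivates C4b, was at 1.06 at 1 week (adjusted p = 0.0569) and was higher by 2.36 and 2.24 at 4 and 6 weeks. CD55, which breaks up the enzymes that cut C3 on cell membranes, was higher by 2.53, 3.52 and 2.54. It could be tested only because it was high in IC (9 IC, 2 RM and 0 CM arrays above 3), so its call is a description.

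VSIG4, a complement receptor of macrophages, was higher by 2.70, 2.59 and 1.88, and ITGB2, the shared chain of complement receptors 3 and 4, by 2.94, 1.79 and 1.34. ITGB2, like CD55, could be tested only because it was high in IC (9 IC, 2 RM and 0 CM arrays above 3). CPN1, a subunit of the carboxypeptidase that inactivates anaphylatoxins, was lower by 3.17, 3.04 and 1.63 on the log2 scale, and VTN, which blocks the membrane attack complex, by 1.61, 1.61 and 1.49. CLU, clusterin, was higher at 1 week (1.17, adjusted p = 0.0325), and without the CM array of pig 30 this was 0.43 (adjusted p = 0.263). CD46, a cofactor for cutting C3b and C4b on cell membranes, was higher by 0.81 and 0.51 at 4 and 6 weeks, and its second tested probe set (-0.13, 0.50 and 0.10 at 1, 4 and 6 weeks) was not called. For CD59, which blocks the membrane attack complex, 2 tested probe sets disagreed. One was at 0.00 to 0.14 against CM, with a sign that turned under other scalings, and the other was called lower at 1 week (-0.63) and higher at 4 weeks (0.96).

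**Figure D5:**
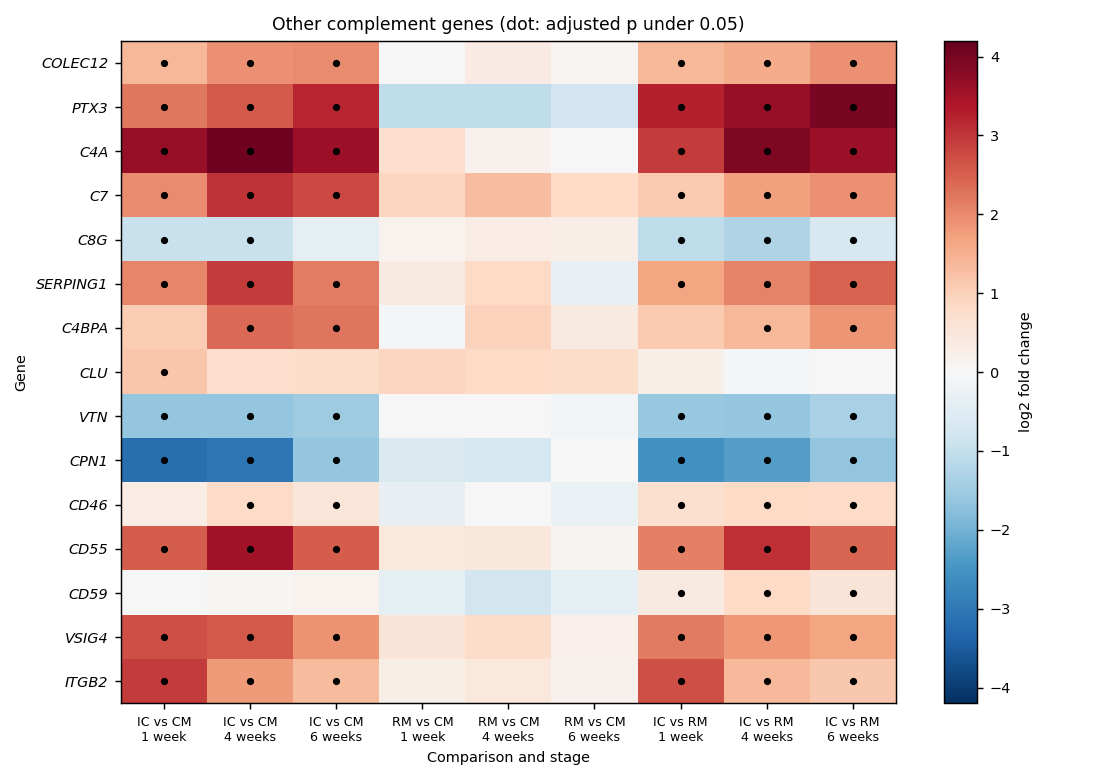
Log2 fold change (colour) of 15 other complement genes (y axis) in IC against CM, RM against CM and IC against RM at each stage (x axis), with a dot where the limma adjusted p was under 0.05. The columns of RM against CM hold no dot, C4A reaches 4.10 in IC against CM at 4 weeks, and CPN1, VTN and C8G lie below 0 in both IC comparisons.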

How the data were processed

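RNA from 21 tissue samples of 12 pigs (7 groups of 3) was hybridized by the study to 1 GeneChip Porcine array each. The authors deposited log2 expression values per probe set after robust multi-chip averaging (RMA), and they were used as deposited. No depth applies to arrays, and 3 arrays per group limit the precision.

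Probe sets above 3 on the log2 scale in at least 10 arrays were kept (12180 of 24123). The 7 group means were fitted with limma 3.58.1 in R 4.3.3 (14 residual and 3.98 prior degrees of freedom), which gave the comparisons with CM and between stages. IC against RM, and its change between stages, came from the 18 arrays of infarcted pigs with pig as a block (6 residual and 4.29 prior degrees of freedom). P-values were adjusted by Benjamini-Hochberg within each of 18 comparisons. The labels give IC and RM of the same pig, and their deviations from the group means correlated at 0.0714 to 0.491, above those with any other pig. A gene measured more than once was represented by its brightest tested probe set, by mean over the 21 arrays, and the others were checked.

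Symbols came from the platform annotation, and for C1QB, COLEC12 and CPN1 from the study's match to human genes. The scripts were tested on simulated data. Members, other complement genes and marker lists (macrophage, fibroblast, cardiomyocyte, smooth muscle, endothelial, adipocyte, hepatocyte, red cell, neutrophil and lymphocyte) were chosen with earlier results of these data known. Of the other complement genes, 1 is not reported here. The genes named as most like a member were the 3 with the highest correlation over 21 arrays. Alternatives were other scalings, filters, probe set rules, fits with array weights, separate fits, fits with or without the pig, and leaving out each array.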

Additional observations from a re-analysis of the deposited data

How the results depend on the processing

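The calls of the 6 members in IC against CM and against RM held under every alternative that kept all arrays. With pig as a random replicate block for the comparisons with CM and between stages, and with no replicate block for IC against RM, no count of members changed (6 of 7 at each stage in both comparisons of IC). With array weights, RM against CM called 1 member at 1 week, and 5 members and 3 other complement genes at 4 weeks. CFD was called higher with array weights in IC against CM at 4 weeks and in IC against RM at 6 weeks. A separate fit of IC against RM at 6 weeks also called it. A separate fit of the groups compared called 2 members in RM against CM at 4 weeks, 0 in IC at 4 against 1 week, and 1 (C3, lower) in IC at 6 against 1 week. Without single arrays, the count of members called in IC at 4 against 1 week ran from 0 to 3. For the separate fits and the fits without single arrays, the share of all tested probe sets called is not given here. Counts of members from those fits therefore cannot show an excess. Other scalings moved the median log2 FC of all tested probe sets in IC against CM from between -0.08 and -0.06 to as low as -0.32 (centring on ribosomal protein genes, 4 weeks). For the log2 FC of the other complement genes, alternatives that kept all arrays lost a call 29 times and gained one 11 times. Some of the losses came from a threshold of 1 on the absolute log2 FC. The sign turned 12 times, and call and sign stayed the same 932 times.

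Some small log2 FC, none of them called as reported, changed sign. With cyclic loess, CFD in IC against CM at 1 week was 0.14, and CLU in IC against RM was 0.16 at 4 and 0.20 at 6 weeks. With array weights, C3 in IC at 4 against 1 week was 0.17, CFD in IC at 6 against 4 weeks 0.027, CLU in IC against RM at 6 weeks 0.15, and CD59 in IC against CM -0.097 at 1 and -0.044 at 4 weeks. CD59 in IC against CM was also -0.085 and -0.048 at 1 and 4 weeks with arrays centred on the median, -0.13, -0.18 and -0.0020 at 1, 4 and 6 weeks with ribosomal centring, and -0.31 and -0.12 at 1 and 6 weeks as the mean of its probe sets.

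Without single arrays, the log2 FC in RM against CM at 6 weeks ran from -0.063 to 0.35 for C1QA, -0.27 to 0.69 for C1QB, -0.20 to 0.50 for C1QC, -0.23 to 0.047 for C1R, -0.25 to 0.049 for C1S and -0.036 to 0.96 for C3. In IC at 4 against 1 week it ran from -0.33 to 0.72 for C1QA, -0.43 to 0.20 for C1QB, -0.071 to 0.53 for C1QC and -0.46 to 0.22 for C3, and for C1S at 6 against 1 week from -0.0098 to 0.50. For CFD it ran from -0.16 to 0.085 in IC against CM and -0.47 to 0.11 in RM against CM at 1 week, -0.16 to 0.56 and -0.25 to 0.81 in IC against RM at 1 and 4 weeks, and -0.86 to 0.41 in IC at 6 against 4 weeks. For CD59 in IC against CM it ran from -0.13 to 0.090 at 1 week and -0.21 to 0.25 at 4 weeks. CLU ran from -0.0077 to 1.19 in IC against CM at 4 weeks and -0.20 to 0.33 in IC against RM at 6 weeks. The cause was not tested. Members near the floor of the array (C5 and CFB) could not be compared, and C8G was not tested under the stricter filter (above 5 in at least 3 arrays).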
